A study of Mus musculus with 6 samples.

Results

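The ErbB receptors and the ligands of the epidermal growth factor (EGF) type were compared between normal livers and liver tumors of C3H mice. The members are 10 genes, the receptors Egfr, Erbb2 and Erbb3 and the ligands Areg, Ereg, Hbegf, Tgfa, Btc, Egf and Epgn. They were found by gene symbol among 34741 gene names on the array, and 12 of its 55681 probes measure them, 3 for Egfr and 1 for each of the other 9 genes. Total RNA of 3 normal livers and 3 liver tumors was labelled with the dye Cy3 and hybridised to 6 SurePrint G3 Mouse GE arrays, 1 for each tissue. All tissues came from male C3H/HeN mice of 74 to 75 weeks, a strain that develops liver tumors spontaneously, and the mice were pups of a control group kept on a standard diet. The tumors were chosen by the study for a Ha-ras mutation, so the tumor group stands for that class of tumor only. The labels do not say whether any normal liver and tumor came from the same animal, so the p-values measure only the spread between these samples.

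ErbB receptors are membrane tyrosine kinases that pair up when a ligand binds and then signal through the Ras-ERK and PI3K pathways. Egfr binds all of the EGF-type ligands listed here and is abundant on hepatocytes. Erbb2 has no ligand of its own and acts as a partner, and Erbb3 has a weak kinase and binds neuregulins. The ligands are made as membrane-bound precursors and are released by proteases of the ADAM family. In the liver these genes are known for their part in regeneration, and Ras lies downstream of the receptors.

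The probes on which the results turned are shown by the 30 bases at the start of their 60 bases as given in the array files, in lower case with no base marked, as the sequences that captured the signal. Egfr was read at 3 places on the plus strand of chromosome 11, all coordinates being those of the array design on mouse build mm9. The description in the files assigns the probe at chr11:16813815-16813874 to transcript variant 1 (NM_207655) and those at chr11:16783556-16783615 (probe A) and chr11:16787172-16787231 (probe B) to transcript variant 2 (NM_007912). Mouse Egfr gives rise to a transcript for the full receptor and to shorter transcripts for its outer part. The variant 1 probe lies 30259 bases downstream of probe A and 26643 bases downstream of probe B, and no word of 12 bases is shared between the probes. The names variant 1 and variant 2 follow the files' assignment, and whether a probe also reads the other transcript was not tested. Which variant stands for the full receptor was not determined here, so a call by 1 probe is no call of the full receptor. The Btc probe lies at chr5:91786948-91787007 and the Nrg1 probe, for a neuregulin described below, at chr8:32928500-32928559, both on the minus strand. The exon or untranslated region under each probe was not determined here, since no annotation of that build was used.
Egfr variant 1: gttgcaagccactctaactgtagcaatgaa
Egfr variant 2, probe A: tctggaagtatgcagatgccaataatgtct
Egfr variant 2, probe B: gaagtgtggccatctgggtacgttcaatgg
Btc: ggatccttgtacattttactttacaagaga
Nrg1: gaagaattacaggccaggctgtctagtgta

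Expression values are given as the processed signal of a probe divided by the 75th percentile of its array, and differences as log2 of tumor minus normal with the standard error (SE) of limma. A probe was tested where Feature Extraction had marked it as well above background throughout a group (3 of 3 arrays), and it was called at an adjusted p under 0.05 over all tested probes. Of 24889 probes tested, 8238 were called, which is 33.1%, and 37.8% of those calls were higher in the tumors. That share was 61.9% with the arrays scaled by spike-in controls and 51.6% with the percentile taken over detected probes. The 75th percentile lay between 123.857 and 182.627 over the 6 arrays, and 42.7% to 46.7% of spots were well above background. Slide 1 held all normal livers and slide 2 all tumors. An effect of the slide therefore cannot be told apart from one of the tissue, and the median local background was 42 to 45 on slide 1 and 22 to 23 on slide 2. Levels of different probes are not compared, since probes differ in brightness.

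The tissue label was checked with markers of the cell types that liver holds. The summed level of 10 hepatocyte markers was 10300 to 11600 in normal livers and 10300 to 10800 in tumors, and all 10 were well above background. Of the 10, Tat (log2 difference -1.43) and Asgr1 (-0.86) were called lower and Apoa1 (0.90) higher. Of 8 macrophage markers, 6 were called lower and 0 higher, with summed levels of 101 to 173 in normal livers and 51.4 to 84.7 in tumors. Of 8 markers of stellate cells and fibroblasts, 4 were called lower and 1 higher, with sums of 86.4 to 103 and 29.1 to 48.7; Dcn carried that fall, and without it the sums were 6.95 to 11.0 and 11.0 to 16.1. Of 7 endothelial markers, 2 were called lower, with sums of 104 to 117 and 80.4 to 89.0. The cholangiocyte sum was 2.65 to 3.26 and 27.5 to 34.8, with 1 of 5 tested markers called (Prom1, log2 difference 6.46), and the lymphocyte sum was 66.3 to 70.2 and 141 to 245, also with 1 of its 4 tested markers called (Cd4, 1.59). Without Prom1 and Cd4 these sums were 2.33 to 2.93 and 1.89 to 2.19 for cholangiocytes, and 7.45 to 9.25 and 7.52 to 9.59 for lymphocytes. No neutrophil marker of 4 tested was called, nor was the 1 tested marker of mast cells and basophils, with sums of 8.45 to 11.5 and 8.73 to 22.5, and of 0.470 to 0.714 and 0.222 to 0.553. The part of these cell types in the results below was not tested.

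Of the 10 members, 7 could be tested, and Areg, Ereg and Epgn could not. With each gene represented by its brightest probe, 2 of the 7 tested members were called, Hbegf and Btc, both higher in the tumors. Btc entered the test only through the tumors, where it is high, so its call and its direction are given as a description and support nothing. Over all 18560 genes tested, 34.2% were called, 13.2% higher and 21.0% lower. The groups did not overlap in 3 of the 7 tested members (Hbegf, Tgfa and Btc), against 51.8% of all genes tested. With quantile normalization, spike-in scaling, the percentile of detected probes, a variance trend or the mean of a gene's probes, 3 members were called. The count was 1 without a filter on dim probes, and 1 to 2 when 1 array was left out. It was 1 with an unpaired t-test on linear values and 0 with a paired one. By probes, 4 of the 9 tested member probes were called, against 33.1% of all probes, the other 2 being those of Egfr transcript variant 2. The median log2 difference of the 7 tested members was 0.12 and that of all genes tested was -0.13. An exact permutation test of a single probe cannot go below p = 0.1 with 3 samples against 3, and the adjusted p-values below are those of limma.

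**Figure D1:**
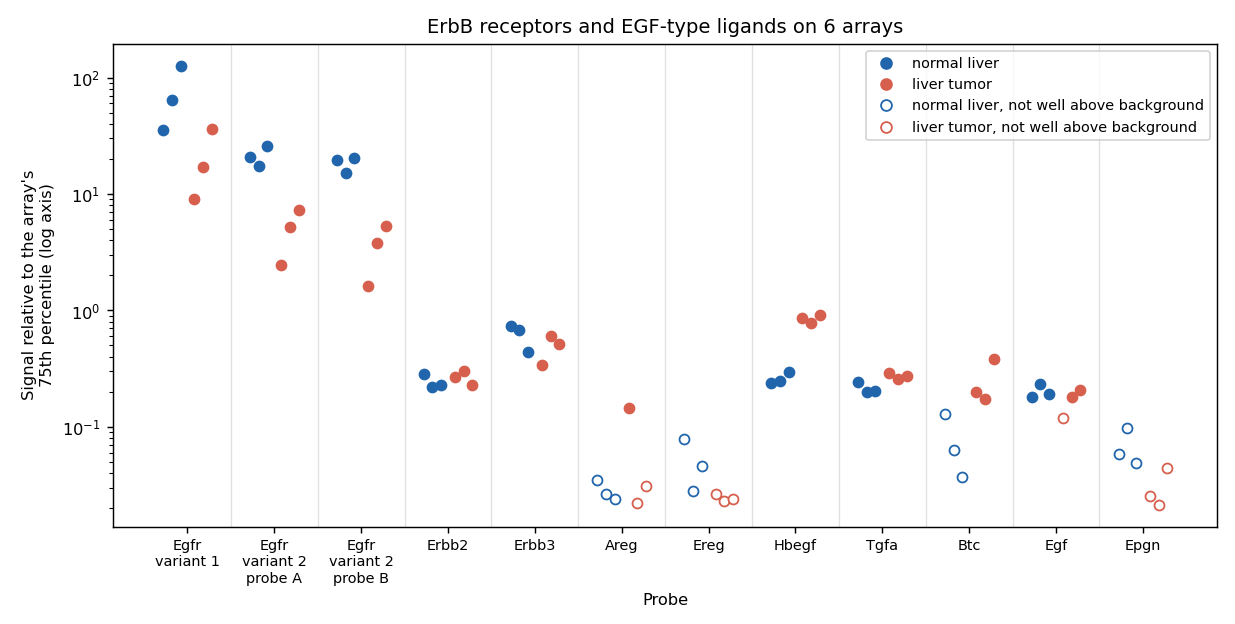
Level of each member probe on the 6 arrays (signal relative to the array's 75th percentile, log axis), with 1 point an array and the arrays of a group in replicate order. Open points were not well above background. The 3 tumors lie below the 3 normal livers for the Egfr variant 2 probes and above them for Hbegf, while Areg, Ereg and Epgn are open on all or all but 1 array.

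Egfr was called lower in the tumors by its transcript variant 2 probes, and not by its variant 1 probe. With probe A the level was 20.9, 17.4 and 25.6 in normal livers 1, 2 and 3, and 2.45, 5.24 and 7.22 in liver tumors 1, 2 and 3. Every tumor was below every normal liver. The log2 difference was -2.22 (SE 0.39, adjusted p = 0.00835 by limma), a 4.65-fold lower level. Probe B gave 19.5, 15.1 and 20.2 in the normal livers and 1.61, 3.78 and 5.33 in the tumors, again with no overlap. Its log2 difference was -2.51 (SE 0.43, limma adjusted p = 0.00722), or 5.69-fold lower. With both probes tumor 1 was the lowest and tumor 3 the highest of the tumors. In bulk tissue, fewer cells of a type and less RNA per cell cannot be told apart.

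The transcript variant 1 probe of Egfr, the brightest of the 3, did not pass the test. Its level was 35.7, 64.2 and 126 in normal livers 1, 2 and 3, and 9.14, 17.0 and 36.3 in tumors 1, 2 and 3. The groups overlapped, because tumor 3 lay just above normal liver 1. The log2 difference was -1.89 (SE 0.62, 95% interval -3.37 to -0.41, limma adjusted p = 0.0566). With 1 array left out it ranged from -2.40 without liver tumor 3 (adjusted p = 0.0328, called) to -1.41 without liver tumor 1 (adjusted p = 0.131), and it was -1.43 without normal liver 3 (adjusted p = 0.144); with the mean of the 3 probes it was -2.21 with an adjusted p of 0.0125. The probe was printed 10 times on each array. Outlier spots were left out, so 7 to 10 spots an array were used, with all 10 in each normal liver. The spots used differed by an SD of only 0.04 to 0.07 on the log2 scale. The normal livers in contrast spanned 3.53-fold with this probe, but only 1.48-fold with probe A and 1.34-fold with probe B. The tumors spanned 3.97-fold, 2.95-fold and 3.32-fold with the same probes. The spread of the normal livers at this probe was thus a spread between arrays and not between spots, and it was not shared by the probes upstream. Whether the probes differed in their change between tissues was not tested.

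**Figure D2:**
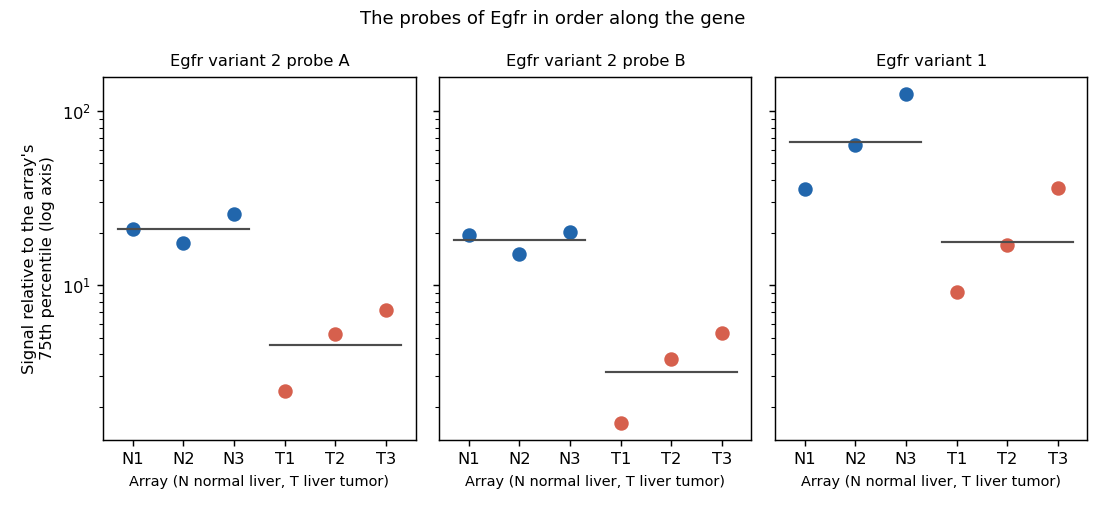
Level of Egfr on each array with its 3 probes, in order along the gene from left to right (signal relative to the array's 75th percentile, log axis). Points are arrays and lines are group means on the log2 scale. Normal livers and tumors are apart with the variant 2 probes, and tumor 3 (36.3) is level with normal liver 1 (35.7) with the variant 1 probe.

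The other receptors were not called. Erbb2, the partner receptor without a ligand, was 0.287, 0.220 and 0.231 in the normal livers and 0.270, 0.303 and 0.229 in the tumors. The groups overlapped, and the log2 difference was 0.12 (SE 0.16, limma adjusted p = 0.599), with a 95% interval of -0.26 to 0.51. Normexp background correction adds an offset of 50 to every signal, which by itself shrinks the log2 differences of dim probes. With it the sign of the Erbb2 difference turned, to -0.03. Erbb3, which binds neuregulins and signals through its partners, was 0.740, 0.684 and 0.441 in the normal livers and 0.339, 0.603 and 0.516 in the tumors. Tumors 2 and 3 lay within the range of the normal livers. The log2 difference was -0.36 (SE 0.28, limma adjusted p = 0.366), with a 95% interval of -1.04 to 0.32, which runs from 0.488 to 1.25 times the normal level.

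Among the ligands, Hbegf (heparin-binding EGF-like growth factor, on chromosome 18) rose in the tumors. Its level was 0.239, 0.246 and 0.298 in normal livers 1, 2 and 3, and 0.854, 0.787 and 0.905 in tumors 1, 2 and 3. All tumors were above all normal livers, and the spread within a group was small, at 1.25-fold in the normal livers and 1.15-fold in the tumors. The log2 difference was 1.70 (SE 0.13, limma adjusted p = 0.000521), a 3.26-fold higher level with a 95% interval of 2.62 to 4.05. With normexp background correction, the log2 difference was 0.84 and the adjusted p 0.000538.

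Btc (betacellulin, a ligand of Egfr and Erbb4) lay above the background in the tumors only. The level was 0.129, 0.0636 and 0.0370 in the normal livers, on 0 of 3 arrays well above background, and 0.198, 0.173 and 0.381 in the tumors, on 3 of 3. The groups did not overlap, although normal liver 1 lay close to tumor 2. Each normal liver was set to its own signal or to the lowest signal well above background on its array, whichever was higher. Against these values the tumors were on average 1.96-fold higher, which is no measured fold. The fitted adjusted p of limma was 0.0348, in a test that Btc entered only through the tumors. The call was lost without any 1 of the arrays other than normal liver 1, with adjusted p-values of 0.0948 without normal liver 2, 0.0813 without normal liver 3, and 0.0618, 0.0530 and 0.0906 without tumors 1, 2 and 3. With normexp the log2 difference fell to 0.39 (adjusted p = 0.134).

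Tgfa (transforming growth factor alpha) and Egf itself were not called. Tgfa was 0.241, 0.200 and 0.203 in the normal livers and 0.293, 0.256 and 0.276 in the tumors, over 7 to 10 spots an array. Every tumor was above every normal liver, by a small margin. The log2 difference was 0.36 (SE 0.12, limma adjusted p = 0.0658). With quantile normalization it was 0.42 (adjusted p = 0.0365), and with normexp it was 0.05. Egf was 0.179, 0.235 and 0.192 in the normal livers and 0.120, 0.180 and 0.208 in the tumors, where tumor 1 alone was not well above background. The spots of these dim probes scattered more than those of Egfr, by an SD of 0.11 to 0.35 for Tgfa, 0.15 to 0.52 for Egf and 0.19 to 0.58 for Erbb2 on the log2 scale. The groups overlapped for Egf, and its log2 difference was -0.28 (SE 0.23, limma adjusted p = 0.377).

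Areg (amphiregulin), Ereg (epiregulin) and Epgn (epigen) were at the background. Areg was well above background in liver tumor 1 only, at 0.145, while the other 5 arrays gave 0.0223 to 0.0353. Ereg lay between 0.0229 and 0.0791 and Epgn between 0.0215 and 0.0985, with no array well above background for either, so that their levels have no order. A low level of these ligands was not detectable on these arrays, which does not show that they were absent.

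Areg, Ereg, Epgn and Btc are consecutive protein-coding genes of a ligand cluster on chromosome 5, by their order in RefSeq annotation. Their outer probes are 322.9 kb apart on mm9. Within the cluster, the tumors thus showed Btc above background on 3 of 3 arrays, Areg on 1, and Ereg and Epgn on 0. Of the 3 neighbours on each side, 4 genes were tested, and 3 of these were called higher in the tumors, against 13.2% of all genes tested. They were Cxcl1 with a log2 difference of 1.81, Mthfd2l with 1.26 and Parm1 with 1.78. Parm1 was well above background in 2 of 3 normal livers, so it entered the test only through the tumors, where it is high. The count is given as a description. The position of a gene in or beside the cluster was therefore shared by genes that were called and genes that were not detected.

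**Figure D3:**
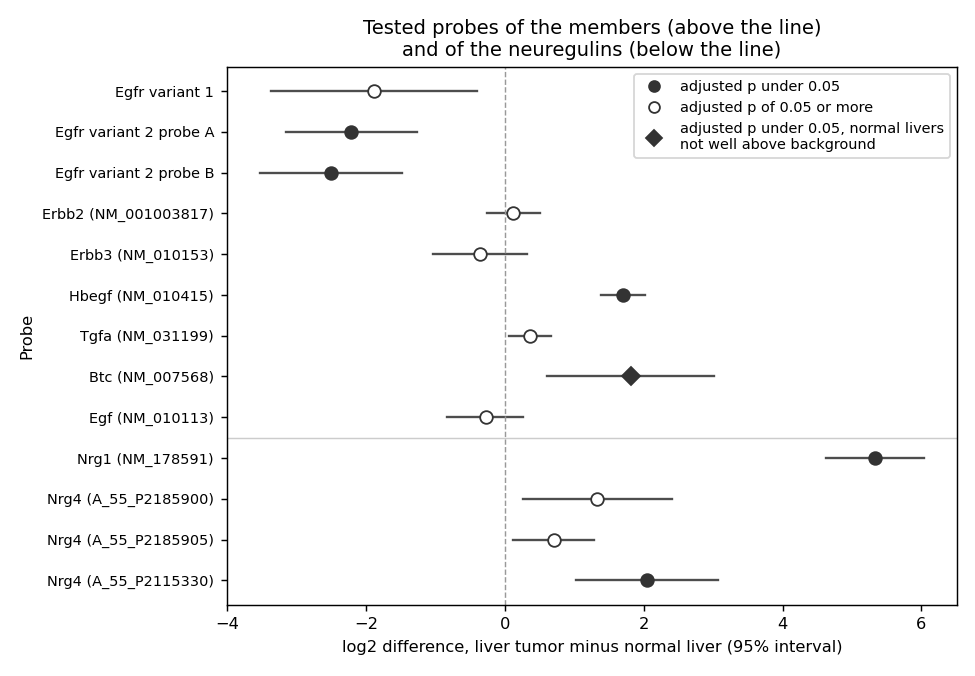
Difference between liver tumors and normal livers (log2, with 95% intervals) for the 9 tested member probes and the 4 tested neuregulin probes. Filled points passed the test, and the diamond marks Btc, whose normal livers were not well above background and whose value is no measured fold. The Egfr variant 2 probes lie at -2.22 and -2.51, Hbegf at 1.70 and Nrg1 at 5.33, and the intervals of Erbb2, Erbb3 and Egf cross 0.

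The remaining receptor and the neuregulins, which bind Erbb3 and Erbb4, were examined next. Neither probe of Erbb4 was well above background on an array, and the same held for Nrg2 and Nrg3. Nrg1 was 0.277, 0.411 and 0.235 in normal livers 1, 2 and 3, and 13.8, 15.2 and 8.35 in tumors 1, 2 and 3. All tumors were far above all normal livers, and all 6 arrays were well above background. The log2 difference was 5.33 (SE 0.30, limma adjusted p = 0.000164), a 40.3-fold higher level, and 4.01 with normexp. Nrg4 has 3 probes that differed in their calls. The brightest gave 0.991, 0.830 and 0.808 in the normal livers and 4.62, 1.79 and 1.29 in the tumors, with tumor 1 far above the others and a log2 difference of 1.33 (limma adjusted p = 0.0621). It was called under some alternatives, among them normexp (1.10, adjusted p = 0.0433) and the mean of the 3 probes (1.36, adjusted p = 0.0243). A second probe of the same transcript gave 0.70 (adjusted p = 0.0709). The third, designed to the transcript AK080089, gave 2.05 (limma adjusted p = 0.0137) and was called, and its difference was 0.93 with normexp. With 2 of 3 normal livers well above background, this probe entered the test only through the tumors, so its call is given as a description.

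Beyond the receptors and ligands, 73 genes of the ErbB pathway in 5 lists were counted, the neuregulin list included. All 73 were on the array, 66 were tested and 26 were called, 14 higher and 12 lower in the tumors. That is to be read against the 34.2% of all genes tested that were called, and no list was tested as a set. Among the called genes, Vav3, Socs5 and Gpc3 (higher) and Sos1 (lower) entered the test only through the group where they are high.

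Of 13 ligand sheddases and their partners, 4 were called higher and 2 lower, with a median log2 difference of 0.28. The proteases Adam10 and Adam17, the main sheddases of the EGF-type ligands, were not called, at 0.35 (limma adjusted p = 0.0645) and -0.18 (adjusted p = 0.295). The called genes with a log2 difference of at least 1 were partners of Adam17. Rhbdf1, an inactive rhomboid protein that carries Adam17 to the cell surface, was 1.93, 1.40 and 1.78 in the normal livers and 14.7, 9.34 and 8.09 in the tumors. The groups were well apart, with a log2 difference of 2.62 (SE 0.25, limma adjusted p = 0.0011). Its relative Rhbdf2 rose by 1.13 (SE 0.16, adjusted p = 0.00394), and Frmd8, which stabilises the complex of these proteins with Adam17, rose by 1.45 (SE 0.14, adjusted p = 0.00108).

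Of 21 genes of receptor brakes and degradation, 3 were called higher and 3 lower, with a median of 0.04. Socs5 was 0.156, 0.225 and 0.184 in the normal livers and 0.552, 0.399 and 0.455 in the tumors. Its fitted log2 difference was 1.32 (SE 0.19, limma adjusted p = 0.00403). With 2 of the 3 normal livers well above background, Socs5 entered the test only through the tumors, so its call is given as a description. Errfi1, a feedback inhibitor of the receptor kinases, rose by 0.51 (adjusted p = 0.0435), and Eps15, an adaptor of receptor endocytosis, by 0.54 (adjusted p = 0.0148). Those that fell were Socs4, a relative of Socs5, by 0.64 (adjusted p = 0.0225), Lrig3 by 0.48 (adjusted p = 0.0378) and Hgs, which sorts receptors for degradation, by 0.41 (adjusted p = 0.0356). The ubiquitin ligases Cbl, Cblb and Cblc were not called, at 0.66, 0.38 and 0.23. Cbl was well above background in 2 of the 3 normal livers, at levels of 0.333, 0.109 and 0.371. It too entered the test only through the tumors, so its 0.66 is no measured fold.

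Of 24 adaptors and first effectors, 22 were tested, of which 4 were called higher and 6 lower, with a median of -0.22. Vav3, among those called higher, was well above background in 0 of 3 normal livers and 3 of 3 tumors. It entered the test only through the tumors, so its call (fitted limma adjusted p = 0.0252) is given as a description. Nck2, an adaptor between receptors and the actin skeleton, was 0.713, 0.789 and 0.947 in the normal livers and 4.94, 2.81 and 2.94 in the tumors, a log2 difference of 2.09 (SE 0.24, limma adjusted p = 0.00222). Pik3r3, a regulatory subunit of PI3K, rose by 1.07 (SE 0.19, adjusted p = 0.00882), while Pik3r1, the most studied of these subunits, fell by 0.86 (adjusted p = 0.00443). Sos1, an exchange factor that loads Ras with GTP, was well above background in 1 of 3 tumors. It thus entered the test only through the normal livers, where it is high. Its fitted log2 difference of -1.17 (SE 0.25, limma adjusted p = 0.0159) is no measured fold and is given as a description. The adaptor Grb2, which brings Sos1 to the receptors, was not called, at -0.31 (adjusted p = 0.0858).

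Of 10 chaperones and coreceptors, 8 were tested, 2 were called higher and 1 lower, with a median of -0.15. Gpc3, a glypican of fetal liver, stayed at the background in the normal livers (0.0371, 0.128 and 0.101) and stood at 24.2, 24.4 and 10.3 in the tumors. With the normal livers set as for Btc, the tumors were on average 159-fold higher, which is no measured fold. It entered the test only through the tumors (fitted limma adjusted p = 0.000357). Cd9, a tetraspanin that binds the precursor of Hbegf, was 8.86, 7.75 and 7.37 in the normal livers and 21.9, 19.7 and 21.5 in the tumors. Its groups were apart with a log2 difference of 1.40 (SE 0.12, adjusted p = 0.000711). Hsp90aa1, a chaperone of Erbb2, fell by 0.57 (adjusted p = 0.0313).

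**Figure D4:**
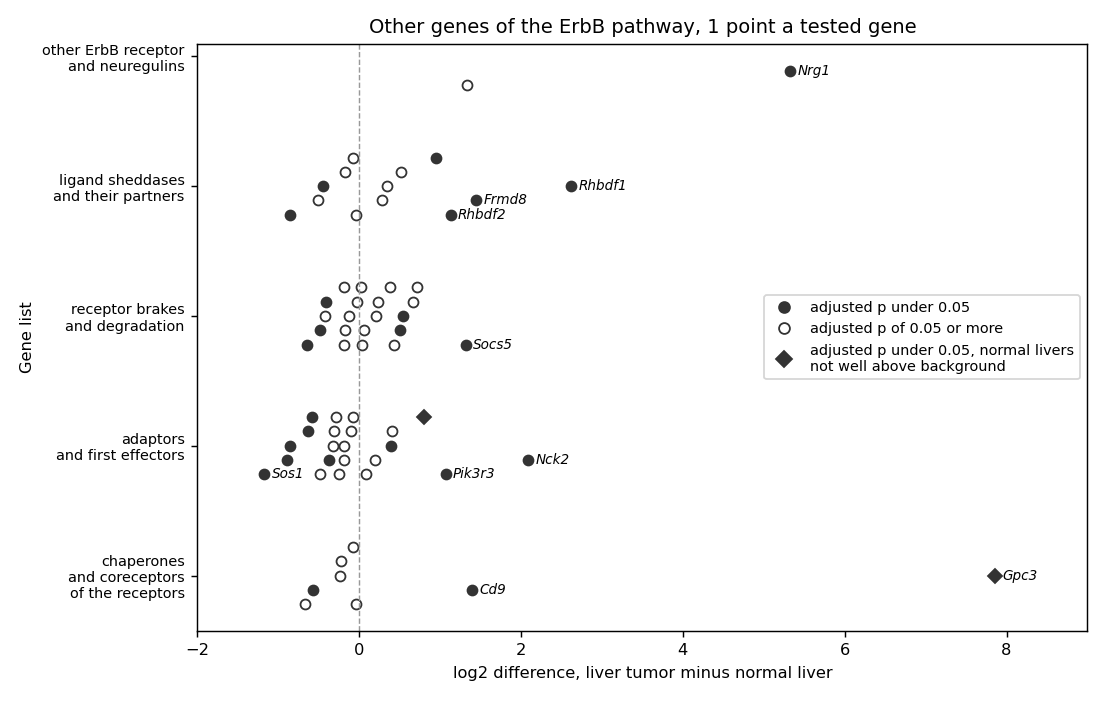
Difference between liver tumors and normal livers (log2) of the 66 tested pathway genes, with 1 point a gene and 1 row a list; the vertical spread within a row only separates points. Filled points passed the test, names are given to those with a log2 difference of at least 1 in either direction, and diamonds mark genes whose normal livers were not well above background. Most points lie near 0, with Gpc3, Nrg1, Rhbdf1 and Nck2 farthest to the right.

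The genes whose pattern over the 6 arrays was most like that of a called member were found by the smallest root mean square difference of log2 values, each centred on its mean in the normal livers, among the 16482 other genes well above background on all 6 arrays. For Hbegf they were Gm5637, Klk1b22 and Ano10, at root mean square differences of 0.0673, 0.0912 and 0.0991. Their log2 differences between tissues were 1.76, 1.76 and 1.68, near the 1.70 of Hbegf. For probe A of Egfr, whose gene was called by its variant 2 probes only, they were Gm10765, Dpys and Car1, at 0.148, 0.151 and 0.170, with log2 differences of -2.15, -2.22 and -2.37. With 6 arrays in 2 groups, such a likeness rests mostly on the size of the difference between the groups.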

How the data were processed

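For each array the authors deposited Feature Extraction output (version 10.7.3.1 by the file headers, 12.0.3.1 per the labels) with the processed signal intensity, background subtracted and detrended, and with flags for spots well above background; the deposited table of ratios holds that signal divided by the 75th percentile of all spots. The intensities were divided by that percentile here and put on the log2 scale. Control and outlier spots were left out, and spots of a probe averaged. The filter kept 24901 probes, of which 24889 had values on all 6 arrays. Groups were compared unpaired with limma 3.58.1 in R 4.3.3 (lmFit and eBayes, two-sided, p-values adjusted by Benjamini and Hochberg). The fit was also run on simulated data with independent noise, which checks the code and not the calls made here. A gene was its brightest tested probe; where a group had no array well above background, the fold is a bound against the higher of the array's lowest such signal and the probe's own. Symbols came through RefSeq accessions for 27235 probes, through symbols for 3581 and synonyms for 565. Named are all members, Erbb4, the neuregulins, up to 4 genes a list called with a log2 difference of at least 1, and the most alike genes; further genes were named after their values were seen. Members and lists were chosen with earlier results of these data known. Tables and figures were made in Python 3.11.15 (matplotlib 3.10.9, numpy 2.4.6, pandas 2.3.3, scipy 1.17.1). Alternatives were normexp (offset 50), other scalings and filters, the table of ratios, the replicate block, averaging the probes of a gene, a variance trend, the methods' t-test and leaving out each array. The number of arrays limits the precision.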

Additional observations from a re-analysis of the deposited data

How the results depend on the processing

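Of the tested member probes, only Erbb2 changed direction under any alternative, to -0.03 with normexp. Hbegf was called under every alternative except the paired form of the methods' t-test (1.70), which on linear values called 0 of all probes, 0 members and 0 pathway genes at an adjusted p under 0.05, against 7419, 2 and 22 at an unadjusted p under 0.05; that form also ended the calls of Egfr probe A (-2.10) and probe B (-2.35), which every other alternative kept. The variant 1 probe of Egfr was called with normexp (-1.82), spike-in scaling (-1.71), the filter on all 6 arrays (-1.89), eBayes with a trend (-1.89) and the mean of the gene's probes (-2.21), and its log2 difference ranged from -2.40 to -1.41 when 1 array was left out. Tgfa was called with quantile normalization (0.42) and with the percentile of detected probes (0.48). Btc, whose values against normal livers at the background are no measured folds, lost its call with normexp (0.39), without a filter (1.81), and in the methods' t-test, unpaired (1.71) and paired (1.71), and ranged from 1.38 to 2.28 when 1 array was left out; the filter on all 6 arrays left no value for Btc and Egf. The members called numbered 1 without a filter, 1 in the unpaired t-test, 3 with quantile normalization, spike-in scaling, the percentile of detected probes, a variance trend or the mean of a gene's probes, and 1 to 2 when 1 array was left out (1 without normal liver 2 or 3 or tumor 1 or 2). The pathway genes called numbered 14 without a filter, and 16 to 20 when 1 array was left out (17 without normal liver 3, 16 without tumor 2). Over all probes, 5127 were called with spike-in scaling, 4672 without a filter (of 55654 tested) and 5261 in the unpaired t-test, and 4962 to 7118 when 1 array was left out, the lowest without normal liver 2. Spike-in scaling moved the median log2 difference of all genes from -0.13 to 0.05, and the percentile of detected probes moved it to -0.01. Such scalings shift all probes of an array alike, so relative to those medians the members did not move.

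The replicate numbers in the labels were not shown to pair the samples, since no label says so. The deviations from the group means of same-numbered samples correlated at 0.069, 0.132 and 0.051. Normal liver 3 correlated slightly better with tumor 1 (0.054), and tumor 3 with normal liver 2 (0.055). Gaps this small do not decide whether the samples were paired. With the replicate number as a block, 7019 probes, 2 members and 23 pathway genes were called; the variant 1 probe of Egfr was called (-1.89, adjusted p = 0.0026) and Btc was not (1.81, adjusted p = 0.0718).

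Ligands at the background (Areg, Ereg, Epgn), the dim probes of Btc, Egf, Erbb2, Tgfa and Hbegf, and the confounding of slide with tissue limit what these arrays can show. Normexp gave the smallest difference for Hbegf, Btc and Tgfa among the alternatives, and its added offset by itself shrinks the differences of dim probes.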
